A study of Mus musculus with 4 samples.

Results

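The genes of blood coagulation and fibrinolysis were followed through RNA of mouse platelets. They are 10 named genes: F5, F13a1, F10, F8, F3, Tfpi, Pros1, Thbd, Plaur and Plau. Of these, 9 are listed in the deposited tables, out of 17995 genes listed in either table, and F3 is listed in neither. Platelets are the small anucleate blood cells that plug wounds. RNA came from 4 libraries, 1 per group, and each held the pooled platelets of 7 male mice. The library labelled cKO came from 3-month-old mice in which HuR, the RNA-binding protein that Elavl1 encodes, was knocked out in platelets only according to the series' design text, and WT came from their wild-type littermates of 3 months. Old came from wild-type mice of 24 months and Young from wild-type mice of 3 months. No source used here gives the promoter that drove the knockout. Since each group is 1 library, no difference could be checked against replicates, and the 95% intervals below hold counting error and nothing else.

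Coagulation is a cascade of plasma proteases and their cofactors that ends in thrombin, which turns fibrinogen into fibrin. Factor Va, the activated product of F5, is the cofactor with which factor Xa, the product of F10, makes thrombin on the platelet surface, and factor VIII (F8) is the cofactor of the preceding step. Tissue factor (F3) starts the cascade, and the transglutaminase factor XIII (its A subunit is F13a1) cross-links the fibrin at the end. Tissue factor pathway inhibitor (Tfpi), protein S (Pros1) and thrombomodulin (Thbd) restrain it. Urokinase (Plau) and its receptor (Plaur) serve fibrinolysis, the removal of fibrin by plasmin. Platelets carry factor V and protein S in their alpha granules and factor XIII A in their cytoplasm.

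The libraries held 17702341 recovered reads in the library labelled cKO and 17978384 in WT, and 18472149 in Old and 18145612 in Young. Of 16 platelet markers, 15 had at least 100 reads in every library, and Gp1bb had 1 to 14 reads. Elavl1, the targeted gene, had 1481 reads in the library labelled cKO and 876 in WT, and 527 in Old and 621 in Young. The library labelled cKO thus had 1.66 times the WT level (1.53 to 1.81), so Elavl1 was not lower in it. These are counts over the whole gene and cannot show whether a deleted exon is missing, so the label could not be checked, and each direction below is given for the library as labelled.

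Only 4 of the 10 genes, F5, F13a1, Pros1 and F10, were abundant in all 4 libraries. Levels between genes are given per length, as RPKM, the reads scaled to the library total (RPM) and divided by the listed gene length in kilobases. F5 (ENSMUSG00000026579, mm10 chromosome 1, 164151838 to 164220277, plus strand, protein coding) stood highest in every library, at 346 RPKM in the library labelled cKO and 488 in WT, and at 1077 in Old and 461 in Young. Its share of all reads was 0.257% in the library labelled cKO and 0.363% in WT, against 0.800% in Old and 0.343% in Young, and by reads it ranked number 69 in the library labelled cKO and 45 in WT, and 16 in Old and 48 in Young. The 9 listed genes together took 0.497% of reads in the library labelled cKO and 0.610% in WT, and 1.09% in Old and 0.534% in Young.

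F13a1 (ENSMUSG00000039109, chromosome 13, 36867178 to 37050244, minus strand) had 267 RPKM in the library labelled cKO and 237 in WT, and 270 in Old and 162 in Young. Pros1 (ENSMUSG00000022912, chromosome 16, 62854307 to 62929346, plus strand) had 137 RPKM in the library labelled cKO and 198 in WT, and 221 in Old and 186 in Young. F13a1 thus stood above Pros1 in the library labelled cKO, WT and Old, and below it in Young, where the intervals of 160 to 164 for F13a1 and 183 to 189 for Pros1 did not overlap. F10 (ENSMUSG00000031444, chromosome 8, 13037308 to 13056676, plus strand) had 13.8 RPKM in the library labelled cKO and 22.4 in WT, and 45.5 in Old and 20.8 in Young. F10 was the lowest of these 4 genes everywhere.

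The other 5 listed genes lay far lower, at 0.0219 to 2.61 RPKM. Plaur (chromosome 7, 24462484 to 24475968), Plau (chromosome 14, 20836660 to 20843385) and Thbd (chromosome 2, 148404466 to 148408188) had higher values than Tfpi (chromosome 2, 84432855 to 84476775) in each library, but the intervals of Plau and Tfpi overlapped in the library labelled cKO and in Old, and those of Thbd and Tfpi in Young. Thbd, Plaur and Plau were not separable by their intervals in WT. F8 (chromosome X, 75172715 to 75382615) was lowest in the library labelled cKO and in Old, at 0.0228 and 0.0219 RPKM, with overlapping intervals for F8 and Tfpi in both. For F3 (chromosome 3, 121723537 to 121735048 in the GENCODE annotation) no value can be given. The smallest sum of reads over both libraries of a table was 2, so genes under that are not listed.

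**Figure D1:**
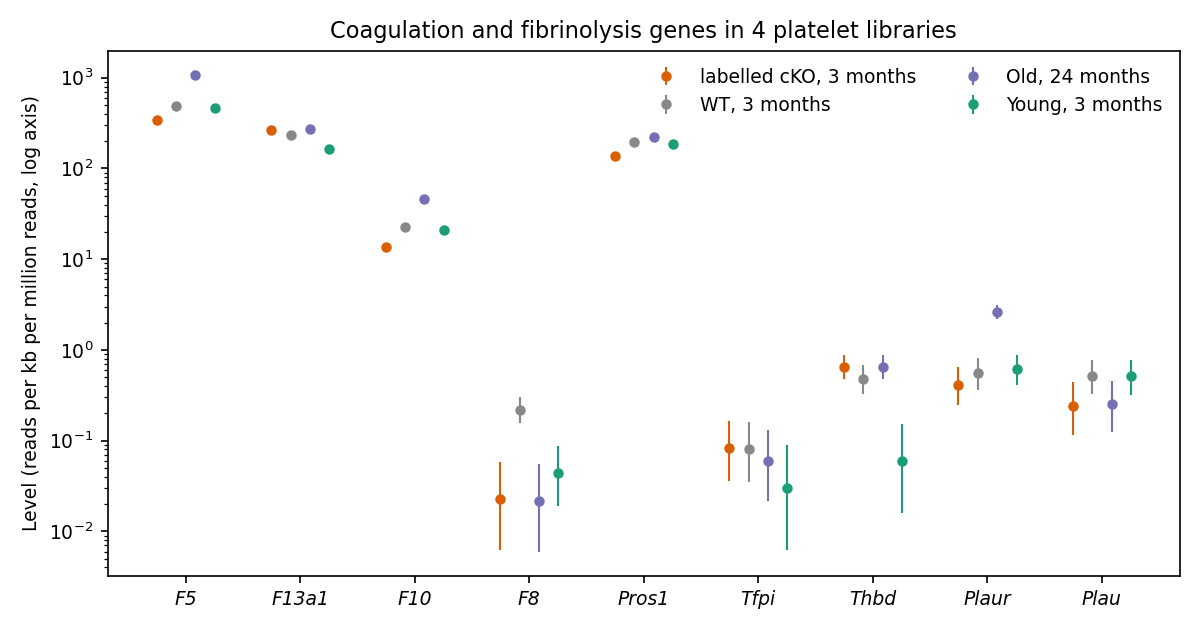
Level of the 9 listed genes in each library, in RPKM on a log axis, with 95% counting intervals as bars and 1 point per library. F5, F13a1, Pros1 and F10 lie at 13.8 RPKM or more in all libraries, the other genes at 2.61 or less.

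Old was set against Young to see what differs with age. F5, F10 and Plaur rose in Old, at 2.60-fold, 2.44-fold and 4.76-fold the Young level after TMM scaling (trimmed mean of M values). F13a1 had a ratio of 1.86 and Pros1 of 1.33, without passing the rule. Rose and fell are kept for genes that have 100 reads or more in the higher library and whose whole interval lies beyond 2-fold. That made 3 of the 5 genes with enough reads, while 4.26% of the 6519 genes tested across the table rose. Plaur reached 100 reads only through Old, so it had to differ to be among the 5, and of the 4 members with 100 reads in both libraries F5 and F10 rose. No member fell, against 4.30% of all tested genes.

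The promoters of the 3 genes that rose are shown so that the sequence before their start can be read beside the values. They are the RefSeq windows from 250 bases before to 50 bases after the start in GRCm38.p6, where 8 of the 10 genes matched, and Thbd and Plau did not. F5 is at chr1:164151585-164151884 (plus strand), F10 at chr8:13037058-13037357 (plus strand) and Plaur at chr7:24462233-24462532 (plus strand). Capitals mark matches on either strand to 4 motifs, and no matches overlapped in these 3 windows. AGATAA stands for the GATA factors. GGAAG is the core of the ETS motif. TGANTCA was searched for AP-1, and CACCC was used for the KLF factors.
F5: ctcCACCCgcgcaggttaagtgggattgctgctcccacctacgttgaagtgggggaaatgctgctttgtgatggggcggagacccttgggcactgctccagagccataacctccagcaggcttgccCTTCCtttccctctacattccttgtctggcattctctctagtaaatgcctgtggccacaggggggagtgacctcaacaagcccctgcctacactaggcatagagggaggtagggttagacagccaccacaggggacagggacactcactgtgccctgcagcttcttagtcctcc
F10: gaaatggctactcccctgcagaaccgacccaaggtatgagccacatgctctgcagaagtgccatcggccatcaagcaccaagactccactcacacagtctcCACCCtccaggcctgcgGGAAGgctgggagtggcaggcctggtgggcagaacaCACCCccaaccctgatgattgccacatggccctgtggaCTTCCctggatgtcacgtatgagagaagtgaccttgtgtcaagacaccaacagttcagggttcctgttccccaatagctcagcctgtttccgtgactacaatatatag
Plaur: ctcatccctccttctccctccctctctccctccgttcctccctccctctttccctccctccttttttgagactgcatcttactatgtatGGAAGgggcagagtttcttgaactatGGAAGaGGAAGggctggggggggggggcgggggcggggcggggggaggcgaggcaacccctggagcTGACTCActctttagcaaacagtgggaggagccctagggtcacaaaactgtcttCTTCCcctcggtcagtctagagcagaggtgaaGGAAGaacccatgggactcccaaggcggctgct
Matches to GGAAG numbered 1 in F5, 2 in F10 and 5 in Plaur, and 71.4% of all 32851 windows of this length held at least 1. CACCC matched 1 time in F5, 2 times in F10 and 0 times in Plaur, with 57.5% of all windows holding it. Plaur alone of the 3 held TGANTCA, which 7.81% of all windows held. AGATAA matched in none of the 3, and 11.2% of all windows held it. A match is a description of letters in the window, not a site of binding.

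Among the procoagulant genes, F5 had 147767 reads in Old and 62165 in Young, a ratio of 2.60 (2.58 to 2.63). Of the 6519 tested genes, 3.70% had a higher ratio. Platelet markers were higher in Old too: in 13 of 15 with enough reads the ratio exceeded 1, the median being 1.503 and the range going from 0.832 for Nrgn to 2.28 for Tubb1, all below that of F5. Per 1000 reads of the summed platelet markers, F5 had 88.7 reads in Old and 42.0 in Young. Ppbp, Nrgn and Itga2b have the most reads of these markers and weigh most in the sum. Their ratios were 0.893, 0.832 and 1.75, so the sum need not move as the median marker does. Scaled by the summed platelet marker reads, an alternative chosen after seeing the data, the ratio was 2.11 for F5. Under that scaling 2 members rose, F5 and Plaur, beside 2.82% of all tested genes.

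F10 had 2296 reads in Old and 1030 in Young, a ratio of 2.44 (2.27 to 2.63). Scaled by platelet marker reads it was 1.98 and no longer passed. F13a1 had 33570 reads in Old and 19815 in Young, a ratio of 1.86 (1.82 to 1.89). F8 had 4 reads in Old and 8 in Young, a difference not detectable at this depth (0.547, 0.121 to 2.04). The reads of F5 could include those of Gm16548, an overlapping long noncoding gene on the other strand, since the use of strand is not given. Gm16548 shares 380 bases with F5 and had 58 reads in Old and 12 in Young. How reads shared by genes were counted is not given, so these counts do not bound the shared reads. Gm16588, a pseudogene within F5 on the same strand, had 0 reads in Old and 9 in Young.

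Of the anticoagulant genes, Pros1 had 16699 reads in Old and 13798 in Young, a ratio of 1.33 (1.30 to 1.36). Thbd had 45 reads in Old and 4 in Young, a ratio of 12.3 (4.49 to 47.2), but with under 100 reads it was not eligible for a call. Tfpi, with 6 reads in Old and 3 in Young, had a ratio of 2.19 (0.468 to 13.5), not distinguishable from 1.

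Of the fibrinolysis genes, Plaur had 126 reads in Old and 29 in Young, a ratio of 4.76 (3.16 to 7.39). Its place among the genes tested rests on its reads in Old. Plau, its ligand, with 11 reads in Old and 22 in Young, had a ratio of 0.547 (0.240 to 1.18), not distinguishable from 1. Within a library there were 11.5 reads of Plaur per read of Plau in Old (6.19 to 23.5) and 1.32 in Young (0.731 to 2.41), and these intervals did not overlap.

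Markers of other blood cells moved beside these genes. Summed neutrophil markers reached 844 RPM in Old and 31.6 in Young, and 41.4 in the library labelled cKO and 68.7 in WT. In Old over Young 11 of the 16 neutrophil markers rose, led in reads by S100a9, beside 4.26% of all tested genes. Lcn2, Ltf, Ngp, Mmp8, Mmp9, Cxcr2 and Il1r2 among the 11 had under 100 reads in Young, so they had to have more in Old to be tested. S100a8, S100a9, Csf3r and Retnlg had at least 100 reads in both libraries. Elane was listed in neither table. The 16 monocyte and macrophage markers summed to 2570 RPM in Old and 3524 in Young, and to 2338 in the library labelled cKO and 3415 in WT. Lyz2 held nearly all of these reads, and the other 15 markers went the other way with age, at 52.6 RPM in Old and 25.9 in Young, and at 31.6 in the library labelled cKO and 32.4 in WT. The markers were mixed: Csf1r, Ccr2 and Cd14 rose in Old and 0 of the 5 with enough reads fell. Csf1r, Ccr2 and Cd14 had 36, 94 and 0 reads in Young, so they had to have more in Old to be among the 5. Lyz2 and Cd163, the rest of the 5, had ratios of 0.802 (0.793 to 0.812) and 0.792 (0.596 to 1.05). Among markers with fewer reads, Adgre1 had a ratio of 0.373 (0.197 to 0.669) and Mrc1 of 0.288 (0.0841 to 0.798), and Cx3cr1 had 0 reads in Old and 13 in Young. Ms4a7 and Marco were listed in neither table. The part of these cells in the values of Plaur, Thbd, F5, F10 and F13a1 was not tested. In bulk RNA, fewer cells of a type and less RNA per cell cannot be told apart.

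Lyz2 alone had 40825 reads in the library labelled cKO and 60816 in WT, and 46508 in Old and 63478 in Young. B cell markers summed to 147 RPM in Old and 552 in Young, and 8 of 12 fell, beside 4.30% of all tested genes. Blk and Fcer2a among the 8 had under 100 reads in Old, so they had to have more in Young to be tested. Erythroid markers summed to 16210 RPM in the library labelled cKO and 8340 in WT, with 10 of 16 rising and Hba-a2 falling, and to 11499 in Old and 21658 in Young, with Sptb rising and Hbb-bt falling in Old. In WT, Ank1, Epb42 and Tspo2 among the 10 had under 100 reads, and 2.52% of all tested genes rose in that comparison. Endothelial cells are known to make Thbd and Tfpi, and their markers summed to 1720 RPM in the library labelled cKO and 1749 in WT, and to 2107 in Old and 1786 in Young. Pecam1, which platelets make too, held most of those reads. Flt1 was the 1 endothelial marker of 8 with enough reads that rose in Old, with 552 reads in Old and 122 in Young, a ratio of 4.95 (4.07 to 6.08). Cdh5, which defines endothelial cells, had 143 reads in Old and 83 in Young, a ratio of 1.89 (1.43 to 2.50). These were the highest ratios of the 8, and the rest ran from 1.02 for Tie1 to 1.41 for Eng. Over the 12 endothelial markers the median log2 ratio of Old over Young was 0.48, beside 0.57 over the 16 platelet markers. The part of endothelial cells in the values of Thbd and Tfpi was not tested. Summed platelet markers were 79559 RPM in the library labelled cKO and 78623 in WT, and 90232 in Old and 81543 in Young.

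**Figure D2:**
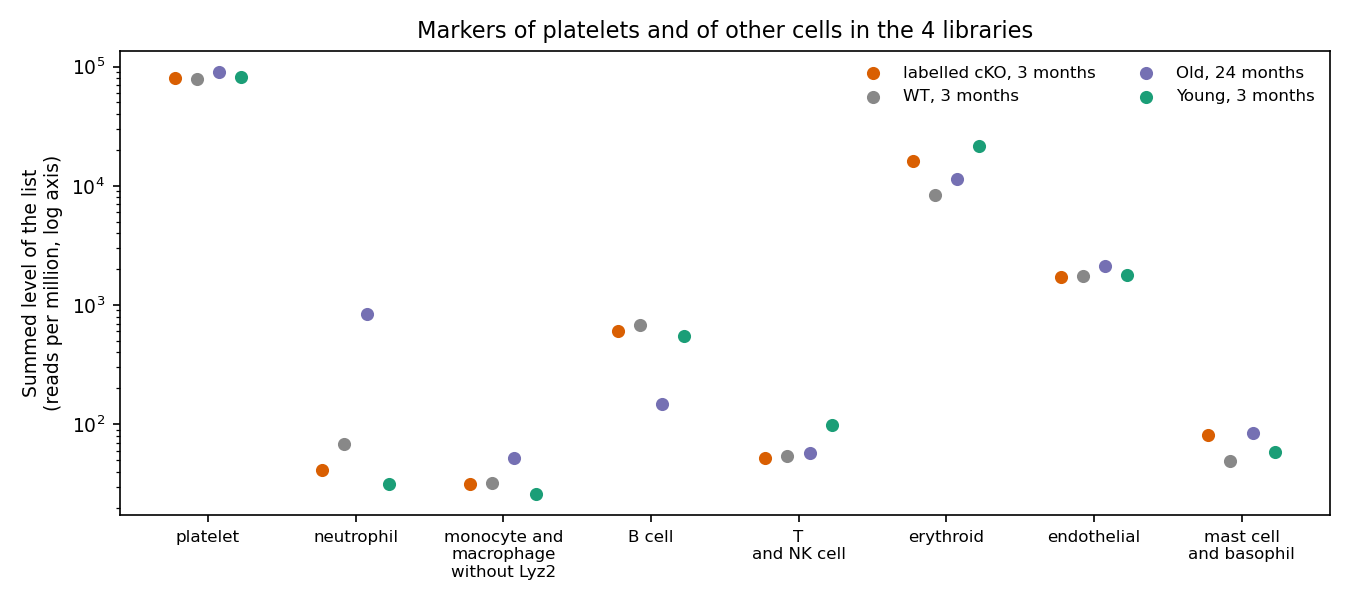
Summed level of each marker list in RPM, on a log axis, with 1 point per library. Neutrophil markers stand at 844 in Old and at 31.6 to 68.7 elsewhere, B cell markers at 147 in Old and at 552 to 677 elsewhere, and platelet markers at 78623 to 90232 in all libraries.

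The authors' deposited table gives adjusted p-values of 0.000159 for Thbd, 0.000407 for Plaur, 0.0136 for F5, 0.0250 for F10 and 0.138 for F13a1 in Old over Young. Among its 16180 genes, 2004 had an adjusted p under 0.05. No source used here names the test, which set 1 library against another and not the ages.

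**Figure D3:**
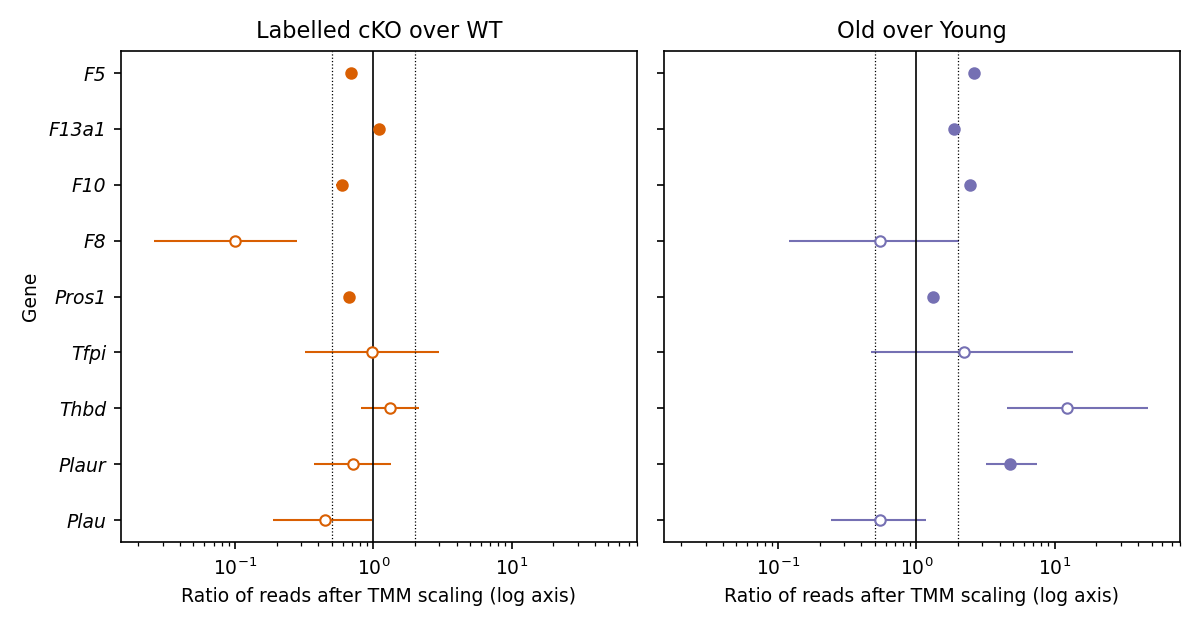
Ratio of reads after TMM scaling for the 9 listed genes, on a log axis, in the library labelled cKO over WT and in Old over Young. Bars are 95% counting intervals, open points are genes with under 100 reads in both libraries, and dotted lines mark 2-fold. In Old over Young F5, F10 and Plaur have their whole interval above 2-fold with enough reads, and Thbd has it with 45 reads at most.

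WT served as a second 3-month wild-type library, compared across the tables on the 14652 genes in both. The comparison shares Old with the one above. Against WT, F5 rose 2.27-fold (2.25 to 2.29) and Plaur 4.86-fold (3.16 to 7.72), so 2 of the 5 genes with enough reads rose while 4.54% of all tested genes did. Plaur again had 100 reads only in Old, and of the 4 members with 100 reads in both libraries only F5 rose. Scaled by platelet marker reads, F5 was at 1.92 and no longer passed, so that 0 of those 4 members rose, beside 3.08% of all tested genes, while Plaur still did. F10 had a ratio of 2.09 (1.94 to 2.25). F13a1 was at 1.17 (1.15 to 1.19) and Pros1 at 1.15 (1.13 to 1.18), and under platelet marker scaling they were at 0.993 and 0.975.

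For Thbd and F8, 1 library stood apart. Thbd had 43 reads in the library labelled cKO and 32 in WT, and 45 in Old and 4 in Young, so that Young was low and the other libraries overlapped. The ratio of Old to WT was 1.41 (0.876 to 2.29), and that of WT to Young, both wild type at 3 months, was 8.74 (3.10 to 34.0). F8 had 4 reads in the library labelled cKO and 39 in WT, and 4 in Old and 8 in Young, so WT was high. WT over Young was 5.33 (2.45 to 13.2) for F8. The difference between WT and Young in F13a1 was 1.58-fold (1.55 to 1.61). No member with at least 100 reads passed in WT over Young, where 1.00% of all tested genes did.

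The next comparison sets the library labelled cKO against WT. None of the 4 genes with at least 100 reads passed, while 4.22% of the 6273 genes tested rose or fell. F5, F10 and Pros1 had lower values in the library labelled cKO, and F13a1 was slightly higher. F5 had 45520 reads in the library labelled cKO and 65193 in WT, a ratio of 0.686 (0.678 to 0.694). Of the tested genes, 14.7% had a lower ratio than F5. F10 had 666 reads in the library labelled cKO and 1101 in WT, a ratio of 0.594 (0.539 to 0.655).

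Pros1 had 9920 reads in the library labelled cKO and 14522 in WT, a ratio of 0.671 (0.654 to 0.689). F13a1 had 31871 reads in the library labelled cKO and 28671 in WT, a ratio of 1.09 (1.07 to 1.11). The 15 platelet markers with enough reads ranged from 0.486 for Selp to 1.40 for Itga2b, so these 4 ratios lay within that range. The part of erythroid cells, whose markers are given above, in the members' ratios was not tested. Against Young, the ratios of the library labelled cKO were 0.803 (0.793 to 0.813) for F5, 0.709 (0.642 to 0.783) for F10, 0.789 (0.768 to 0.809) for Pros1 and 1.76 (1.73 to 1.80) for F13a1. None passed there either, with 2.86% of all tested genes passing. The comparisons with WT and Young share the library labelled cKO.

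The low genes were mostly not separable in this comparison. Plaur had 19 reads in the library labelled cKO and 26 in WT (0.718, 0.376 to 1.35), Thbd had ratio 1.32 (0.816 to 2.16), and Tfpi had 8 reads in each. Plau had 10 reads in the library labelled cKO and 22 in WT, a ratio of 0.447 (0.189 to 0.983). F8 was at 0.101 (0.0262 to 0.279) and, with 39 reads at most, was not eligible for a call. The first 217 bases of the F8 gene overlap Fundc2 on the other strand. Fundc2 had 1419 reads in the library labelled cKO and 2691 in WT, and 1994 in Old and 1963 in Young. Without strand the reads of the 2 genes in the overlap cannot be told apart, and the part of Fundc2 in the values of F8 was not tested. In the authors' deposited table the adjusted p of F8 was 0.00280, and those of F5, F10, Pros1 and F13a1 were 0.563, 0.357, 0.517 and 0.952.

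Other rules for a call added members with few reads or smaller ratios. With at least 20 reads in place of 100, Thbd was also higher in Old over Young (4 members, beside 5.53% of all tested genes), and with no minimum the members were the same number (5.49%). In Old over WT, F8 was then lower (beside 5.49% and, with no minimum, 5.33% of all genes). F8 was lower in the library labelled cKO over WT as well (2.49% and 2.54%). Thbd was higher in the library labelled cKO over Young (2.61% and 2.48%), and F8 and Thbd were higher in WT over Young (1.26% and 1.63%).

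With 100 reads and a bound of 1.5-fold, F13a1 was higher in Old over Young (beside 10.4% of all genes), in the library labelled cKO over Young (6.78%) and in WT over Young (2.59%). F10 was then higher in Old over WT (12.1%) and lower in the library labelled cKO over WT (6.28%). At a bound of 4-fold 0 members passed in Old over Young and in Old over WT, where 1.27% and 0.917% of all tested genes were higher.

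Ratios between genes within a library do not depend on library scaling, and they show how the members' reads stood to each other. There were 68.3 reads of F5 per read of F10 in the library labelled cKO (63.3 to 73.9) and 59.2 in WT (55.8 to 62.9), and 64.4 in Old (61.8 to 67.1) and 60.4 in Young (56.7 to 64.2). The intervals of the library labelled cKO and WT just missed each other, while Old and Young overlapped, although F5 itself spanned 45520 to 147767 reads. F5 per read of Pros1 was 4.59 in the library labelled cKO (4.49 to 4.69) and 4.49 in WT (4.41 to 4.57), and 8.85 in Old (8.71 to 8.99) and 4.51 in Young (4.42 to 4.59). The 3 libraries of 3-month mice thus overlapped, and Old stood apart.

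The ratios with F13a1 varied more between libraries. F5 per read of F13a1 was 1.43 in the library labelled cKO (1.41 to 1.45) and 2.27 in WT (2.24 to 2.31), and 4.40 in Old (4.35 to 4.45) and 3.14 in Young (3.09 to 3.19). F13a1 per read of Pros1 was 3.21 in the library labelled cKO (3.14 to 3.29) and 1.97 in WT (1.94 to 2.01), and 2.01 in Old (1.97 to 2.05) and 1.44 in Young (1.41 to 1.47). WT and Young, of the same age and genotype, differed by more than their counting intervals in both F13a1 ratios, and the spread between pools of such mice is not known beyond that pair.

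**Figure D4:**
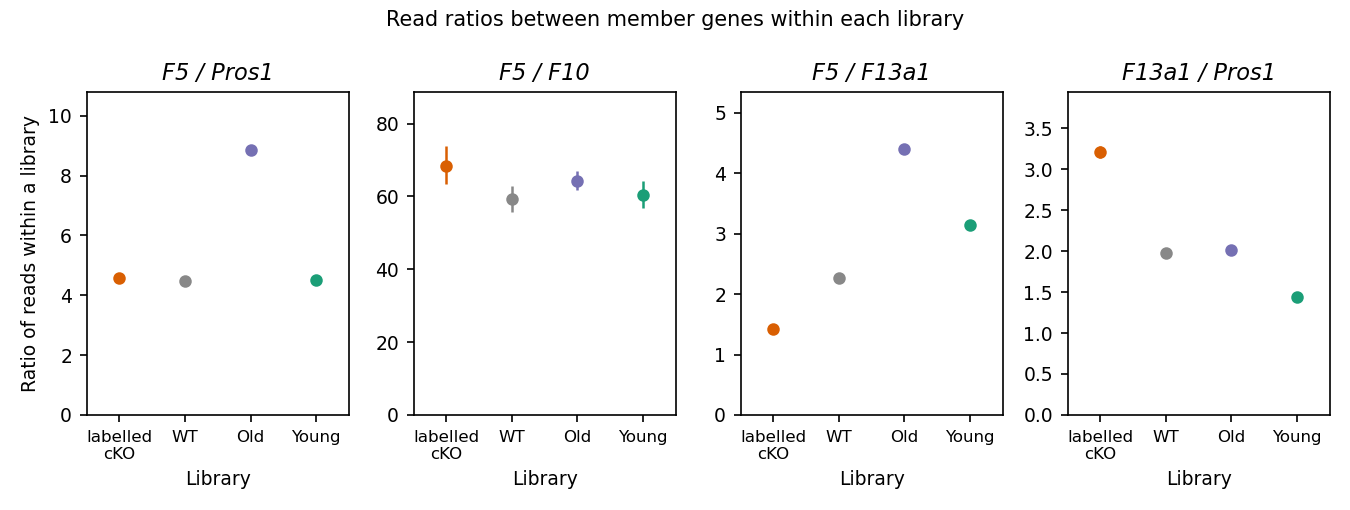
Number of reads of the first gene per read of the second, within each library, on linear axes from 0. Bars are 95% counting intervals, smaller than the points in most panels. F5 per Pros1 is 8.85 in Old and 4.49 to 4.59 in the other libraries, while F5 per F10 lies between 59.2 and 68.3 in all 4.

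A wider set of 61 genes of coagulation, anticoagulation, fibrinolysis, factor maturation and thrombin receptors, the members included, set these genes among their pathway. In Old over Young, 43 were listed and 25 had enough reads. F5, F10, Plaur, Tgm2, Lrp1 and F2r rose, 0 fell and 19 did neither, against 4.26% of all tested genes rising. Without the members, 3 of the 20 genes with enough reads rose. The median log2 ratio was 0.47 over 33 genes with at least 20 reads, and 0.42 over 26 genes without the members, beside -0.059 over all genes. Over the 16 platelet markers it was 0.57, so the shift was not particular to the wider set. Lrp1, an endocytic receptor that clears protease and inhibitor complexes, rose 11.96-fold (8.94 to 16.3), with 546 reads in Old and 50 in Young. Like Plaur it had 100 reads in Old but not in Young, so it was tested in this comparison only through Old.

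F2r, the thrombin receptor PAR1, rose 2.28-fold (2.03 to 2.56). Tgm2, a tissue transglutaminase, rose 2.48-fold (2.08 to 2.96). With library totals in place of TMM, F2r and Tgm2 no longer passed, and 4 list genes passed. F2rl3 (PAR4, the signalling thrombin receptor of mouse platelets) had a ratio of 1.95 (1.68 to 2.26) and F2rl2 (PAR3, its cofactor) of 1.39 (1.35 to 1.43). Serpine2, an inhibitor of thrombin and urokinase, had a ratio of 2.00 (1.91 to 2.08), and Serpinb2, an inhibitor of plasminogen activators, of 2.04 (1.82 to 2.30). Vwf, the adhesive protein that carries factor VIII in plasma, had a ratio of 1.47 (1.46 to 1.48).

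Genes that handle factors V and VIII in the cell gave other values. Mcfd2, which with Lman1 ferries both factors out of the endoplasmic reticulum, had 293 reads in Old and 625 in Young, a ratio of 0.513 (0.445 to 0.591). Mmrn1, multimerin, which binds factor V in platelet alpha granules, had a ratio of 1.07 (1.05 to 1.09). S100a10 and Anxa2, which together bind plasminogen at the cell surface, had ratios of 0.758 (0.744 to 0.772) and 1.60 (1.44 to 1.77). Several other genes of the wider set were scarce or unlisted. F7, F11, F13b, Fga, Fgb, Fgg and Plg are listed in neither table. The counts of F9 were 13 (Old) and 1 (Young). Those of F12 were 10 (Old) and 0 (Young), and those of F2 were 0 (Old) and 5 (Young).

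In the library labelled cKO over WT, 41 of the 61 genes were listed and 24 had enough reads. Furin rose, Serpinb2 and F2rl2 fell and 21 did neither, against 2.52% of all tested genes rising and 1.71% falling. The median log2 ratio was -0.21 over 35 genes, and -0.055 over 27 genes without the members, beside -0.015 over all genes and -0.11 over 15 platelet markers. Serpinb2 had 117 reads in the library labelled cKO and 455 in WT, a ratio of 0.253 (0.204 to 0.310), and against Young it was 0.292 (0.236 to 0.358). Furin, a protease that processes proproteins, had 1501 reads in the library labelled cKO and 521 in WT, a ratio of 2.83 (2.56 to 3.13).

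F2rl2 had 4232 reads in the library labelled cKO and 9677 in WT, a ratio of 0.430 (0.414 to 0.445). Mmrn1 had 19022 reads in the library labelled cKO and 38006 in WT, a ratio of 0.492 (0.483 to 0.5004), just short of the rule. Vwf had a ratio of 1.17 (1.17 to 1.18), Anxa5, a phosphatidylserine binder, of 0.867 (0.824 to 0.913), and Plgrkt, a plasminogen receptor, of 0.806 (0.713 to 0.912).

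**Figure D5:**
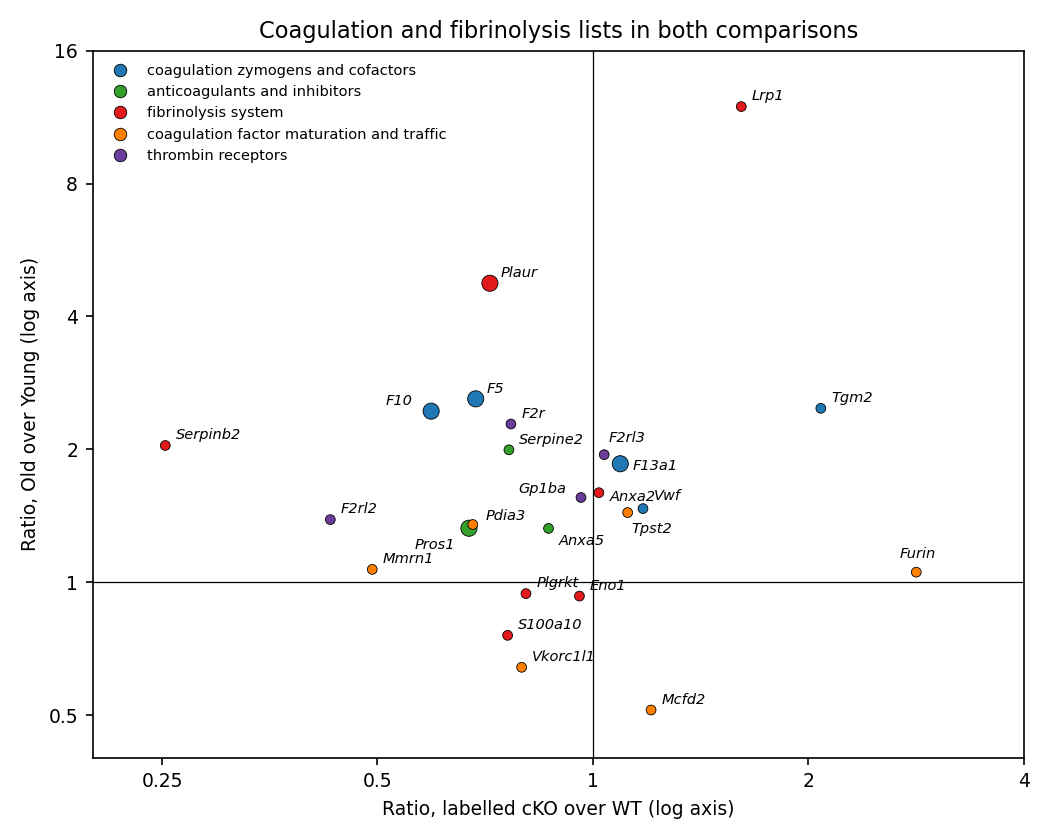
Ratios after TMM scaling on log axes, with the library labelled cKO over WT on the horizontal axis and Old over Young on the vertical axis, for 24 genes of the wider lists with at least 100 reads in both comparisons and for Plaur, coloured by list. Large points are members. F5, F10, Pros1 and Plaur lie left of 1 and above 1, and F13a1 lies above 1 on both axes.

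The genes whose levels over the 4 libraries were most like those of a member are given as a description, by the root mean square difference of log2 RPM centred over the libraries. Closest to F5 were Tcp11l1 (0.035), Cdk16 (0.058) and Ppp1r3d (0.067) among 4701 other protein-coding genes with at least 100 reads in every library. Closest to F13a1 were Sept11 (0.041), Atpaf1 (0.061) and D030056L22Rik (0.073). Pros1 was closest to Fut8 (0.010), Sertad2 (0.025) and Adam17 (0.027). Plaur was searched among 6369 genes with at least 10 reads in every library, and Sema4a (0.096), Cntnap1 (0.11) and Palm (0.13) were nearest. Plaur had only 19 reads in the library labelled cKO, 26 in WT and 29 in Young, so counting error can change which genes are nearest to it. With 4 libraries many genes can share a pattern.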

How the data were processed

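The authors deposited 2 tables with a signal per gene and library, and, per the file headers, log2 fold changes with p-values, raw and adjusted. The submitters' processing notes name build mm10 and the tools DESeq2 1.20.0, featureCounts 1.5.0-p3, HISAT2 2.0.5 and CASAVA, without saying what each did. Whether strand was used, and how reads shared by genes were counted, no source used here says. Each deposited signal equals a whole number of reads multiplied by a step that is fixed in a library, with a small offset, and 100% of values gave whole reads within 0.02 read. The design had assumed reads, so the recovered reads were used. Another 4 per-sample columns match no sample name and were not used. No count test was run with 1 library per group. TMM factors came from edgeR 4.0.16 in R 4.3.3, pair by pair. Exact Clopper-Pearson 95% intervals (scipy 1.17.1) cover the counting error of reads only. Amplified reads are not independent molecules unless molecular identifiers mark them, so the intervals can be too narrow for molecules. A pseudocount of 0.5 read entered list medians. Scripts were tested on simulated data. Named genes come from the members and every pathway list gene called in either deposited comparison. To these come the genes with the most reads, up to 4 further per pathway list and up to 3 per marker list. Marker genes at 0 and the 3 genes most like F5, F13a1, Pros1 and Plaur complete the rule. Genes outside this rule were chosen after their values were seen. Protein sequences were not analysed here. Members and lists were chosen with earlier results of these data known. Alternatives were DESeq2 size factors (1.42.0), library totals, totals without haemoglobin and mitochondrial genes, summed platelet marker reads, other minimum counts and other bounds.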

Additional observations from a re-analysis of the deposited data

How the results depend on the processing

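F5 and Plaur in Old over Young kept their calls under all 5 scalings, with ratios of 2.11 to 2.66 for F5. F10 kept its call under all but platelet marker scaling. Against TMM, the median of all genes in Old over Young shifted by -0.16 (log2) with library totals, by -0.16 without haemoglobin and mitochondrial genes and by -0.30 with platelet marker reads. The wider list median in Old over Young moved with them to 0.31, 0.31 and 0.17, and in the library labelled cKO over WT it was -0.062 with no minimum of reads. Called list genes in Old over Young numbered 6, 6, 4, 4 and 4 over TMM, size factors, totals, totals without haemoglobin and mitochondrial genes, and platelet marker reads, the last with 1 lower (Mcfd2). At platelet marker scaling 1 member was called in Old over WT in place of 2. A minimum of 20 reads and no minimum each gave 1 call in the library labelled cKO over WT (F8, lower), 1 over Young (Thbd, higher) and 2 in WT over Young (F8 and Thbd). A bound of 1.5-fold gave 1 call in each of these (F10 lower, F13a1 higher, F13a1 higher), and a bound of 4-fold gave 0 in Old over Young and Old over WT. No called ratio changed direction, while Tfpi in the library labelled cKO over WT, and F13a1 and Pros1 in Old over WT, lay on either side of 1 over the scalings. No paired analysis was possible because each group has 1 library, and for the same reason no library could be left out. Depth limits F8, Tfpi, Thbd and Plau, each under 100 reads in every library.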
